A study of Homo sapiens with 38 samples.

Results

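Integrins are the receptors by which cells hold on to the extracellular matrix, and laminins are the trimeric proteins that form the base of the basement membrane. The 32 genes described here are 22 integrin chains (14 alpha, 8 beta) and 10 laminin chains (5 alpha, 3 beta, 2 gamma), chosen by gene name, and all 32 had a row among the 43412 genes of the deposited table. They were followed in H9, an established human embryonic stem cell line, while WNT signalling was switched on in 3 ways. In the CHIR99021 arm, H9 cells received 10 µM of this inhibitor of the kinase GSK3 for 8, 16, 24, 48 or 72 h. The Wnt3a arm used the recombinant ligand at 240 ng/ml and was sampled at 8, 24, 48, 72, 96 and 120 h. The bcat arm used H9 cells that carry, stably integrated, deltaN90 beta-catenin under doxycycline control, a form that resists destruction. Its cells received doxycycline at 1 µg/ml and were sampled at 8, 16, 24, 48 and 72 h. Undifferentiated 0 h cultures were sequenced for each arm separately, and those of the bcat arm carried the construct uninduced. The labels do not say whether the bcat line was 1 clone.

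All cells were seeded on Matrigel, itself a laminin-rich matrix, and 16 h later moved from stem cell medium to RPMI1640 with B27 together with the agent. Cultures given this medium without an agent were not analysed here, so the change of medium and the agent cannot be told apart. Total RNA was sequenced, 2 libraries per group in 19 groups, and values are CPM, the estimated counts per mega-count of the library, scaled for each library's composition. For Wnt3a at 72 h the second replicate repeats the first in each of the 43412 genes, so this group has 1 library and 37 are used. Tests at Wnt3a 72 h assume that this lone library varies like the other groups. Library totals were 2.45 to 65.7 M estimated counts (median 18.99 M, where M is mega), the lowest in Wnt3a 0 h replicate 1. Cytosolic ribosomal RNA took 34% to 60.3% of the counts in 3 bcat libraries (0 h replicate 1, 24 h replicate 1 and 48 h replicate 2) and 0.419% to 27.2% in the others, and mitochondrially encoded genes took 0.369% to 1.55% in bcat libraries, against 6.77% to 16.6% in the other arms. The 4 libraries named here were left out together in 1 of the alternative fits.

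An integrin is a pair of 1 alpha and 1 beta chain, and the alpha chain largely decides what is bound. The alpha3, alpha6 and alpha7 chains bind laminin with beta1, alpha5 with beta1 binds fibronectin, and alphaV pairs with several beta chains to bind vitronectin, fibronectin or latent TGF-beta through the RGD motif. A laminin is a trimer of 1 alpha, 1 beta and 1 gamma chain that self-assembles into a sheet on the cell surface. Human pluripotent cells in culture attach to laminin chiefly through alpha6 beta1, and beta-catenin drives them out of pluripotency towards primitive streak fates when WNT is active.

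The cells matched their label at the start and moved away from it. The 10 pluripotency markers summed to 5653 to 5774 CPM at CHIR99021 0 h, 5925 to 7079 CPM at Wnt3a 0 h and 5115 to 5766 CPM at bcat 0 h, and none of them was at 0. They summed to 2084 to 2113 CPM at CHIR99021 48 h, 2592 to 2654 CPM at CHIR99021 72 h, 2719 to 2928 CPM at Wnt3a 96 h and 2242 to 2492 CPM at bcat 72 h. Mesenchyme, primitive streak, presomitic mesoderm and definitive endoderm markers summed to more than at 0 h at the times given next. A sum can rest on a few markers, and not all went up. By the calling rule given below, 6, 7, 5 and 4 markers of these lists in order were higher at CHIR99021 48 h (15.7% of all genes were). There 0, 1, 2 and 2 were lower (18.1%). At bcat 72 h, 6, 8, 5 and 3 were higher (13.6%) and 1, 0, 0 and 1 lower (13.6%). The sum over 9 mesenchyme markers was 2889 to 2907 CPM at CHIR99021 48 h, against 147 to 166 CPM at its 0 h. It was 452 to 596 CPM at Wnt3a 96 h, against 133 to 134 CPM at its 0 h, and 2281 to 2803 CPM at bcat 72 h, against 205 to 231 CPM at its 0 h. The sum over 10 primitive streak markers was 870.3 to 909.8 CPM at CHIR99021 48 h, against 2.97 to 3.52 CPM at its 0 h. It was 767 to 833 CPM at Wnt3a 48 h, against 2.45 to 2.59 CPM at its 0 h, and 595 to 604 CPM at bcat 72 h, against 2.94 to 4.39 CPM at its 0 h. For 8 presomitic mesoderm markers it was 371 to 452 CPM at CHIR99021 48 h, against 16 to 17 CPM at its 0 h. Those 8 gave 26.6 to 28 CPM at Wnt3a 96 h, against 7.76 to 9.41 CPM at its 0 h, and 132 to 162 CPM at bcat 72 h, against 16.8 to 30.1 CPM at its 0 h. For 8 definitive endoderm markers it was 560.2 to 719 CPM at Wnt3a 48 h, against 1.25 to 2.26 CPM at its 0 h. Those 8 gave 242 to 274 CPM at CHIR99021 48 h, against 3.97 to 4.47 CPM at its 0 h, and 87.4 to 89.8 CPM at bcat 72 h, against 5.88 to 7.06 CPM at its 0 h. Of these markers, those at 0 in both libraries were MEOX2 at bcat 72 h; MEOX2, SOX17 and CER1 at CHIR99021 48 h; MEOX2 at Wnt3a 48 h; MSGN1 at Wnt3a 96 h. Before treatment they were TWIST1, COL3A1, MESP1, CDX2, FGF8, MSGN1, FOXA2, GATA6 and FOXA1 at bcat 0 h; CDX2, MSGN1 and SOX17 at CHIR99021 0 h; MSGN1 at Wnt3a 0 h. The presomitic sum did not stay above 0 h under Wnt3a, with 6.21 to 8.78 CPM at 120 h, where MSGN1 and MEOX1 were at 0. Not every list of another cell type rose. The 9 endothelial markers summed to 26.2 to 26.7 CPM at CHIR99021 48 h, where CDH5 and ERG were at 0, against 167 to 168 CPM at its 0 h. The part of these lists in the changes below was not tested. These are bulk samples, in which fewer cells of a type and less RNA per cell cannot be told apart.

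A gene was called when its adjusted p (edgeR quasi-likelihood test, Benjamini-Hochberg over all 24304 tested genes) was below 0.05, and all 32 members were tested. Under CHIR99021, 7, 6, 10, 15 and 14 members were called at 8, 16, 24, 48 and 72 h, or 21.9%, 18.8%, 31.2%, 46.9% and 43.8% of the 32, where 20.9%, 15.9%, 14.5%, 33.9% and 24.9% of all tested genes were. Under Wnt3a, 2, 10, 8, 11, 16 and 14 members were called at 8, 24, 48, 72, 96 and 120 h, or 6.25%, 31.2%, 25%, 34.4%, 50% and 43.8% of the 32, against 3.45%, 20.2%, 16.1%, 16.4%, 39.9% and 27.9% of all tested genes. In the bcat arm, 6, 2, 4, 6 and 12 members were called at 8, 16, 24, 48 and 72 h, or 18.8%, 6.25%, 12.5%, 18.8% and 37.5% of the 32, against 18.7%, 10.9%, 12.8%, 21.3% and 27.3% of all tested genes. Split by direction, and with the share of all genes called that way in parentheses, 1 (9.2%), 2 (6.55%), 5 (5.91%), 9 (15.7%) and 8 (11.5%) members were higher at the CHIR99021 times in order. The counts lower there were 6 (11.7%), 4 (9.34%), 5 (8.61%), 6 (18.1%) and 6 (13.4%). Under Wnt3a 2 (2.28%), 8 (9.32%), 7 (7.58%), 9 (8.43%), 13 (18.8%) and 10 (12.2%) members were higher. The counts lower there were 0 (1.18%), 2 (10.9%), 1 (8.56%), 2 (7.94%), 3 (21%) and 4 (15.6%). In the bcat arm 0 (10.7%), 0 (6.23%), 1 (6.87%), 1 (11.1%) and 6 (13.6%) were higher. The counts lower there were 6 (8.01%), 2 (4.69%), 3 (5.95%), 5 (10.1%) and 6 (13.6%). The median log2 change of the 32 members, with that of all genes in parentheses, was -0.12 (-0.01), -0.08 (-0.02), -0.08 (-0.01), 0.11 (0.02) and -0.06 (0.00) at the CHIR99021 times. It was 0.06 (0.04), 0.34 (0.04), 0.30 (0.00), 0.37 (0.01), 0.51 (0.07) and 0.30 (0.00) at the Wnt3a times and -0.41 (0.05), -0.19 (0.07), -0.04 (0.09), -0.07 (0.03) and 0.00 (0.06) at the bcat times.

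Several of these counts rested on single libraries. At CHIR99021 24 h the count of 10 members was 6 without 0 h replicate 1, 6 without 0 h replicate 2, 6 without 24 h replicate 1 and 4 without 24 h replicate 2. At CHIR99021 72 h the count of 14 was 9 without 72 h replicate 1. At Wnt3a 24 h the count of 10 was 6 without 0 h replicate 1 and 5 without 24 h replicate 2, and at Wnt3a 8 h the count of 2 was 1 without 0 h replicate 1 or either 8 h replicate. At bcat 16 h the count of 2 was 1 without 16 h replicate 1.

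All times of an arm were also tested jointly against its untreated cultures (edgeR quasi-likelihood test). This joint test called 22 members under CHIR99021 (68.8% of the 32, against 50.4% of all genes). It called 23 under Wnt3a (71.9%, against 54.3%) and 18 in the bcat arm (56.2%, against 41.1%). A joint call does not require a call at any single time, and fewer members were called at single times in each arm. At single times, ITGA5, ITGA8, ITGA9, ITGB8 and LAMB1 were called higher at least once in each of the 3 arms. ITGA4 and ITGA6 were called lower at least once in each. The share of all genes that meet these rules was not computed, so no excess among the members is claimed. ITGA8 had few counts outside the Wnt3a arm. No ITGA9 call, and no ITGA4 call under Wnt3a, was kept with every single library left out. Of these, ITGA5, ITGB8, LAMB1 and ITGA6 are plotted by library.

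**Figure D1:**
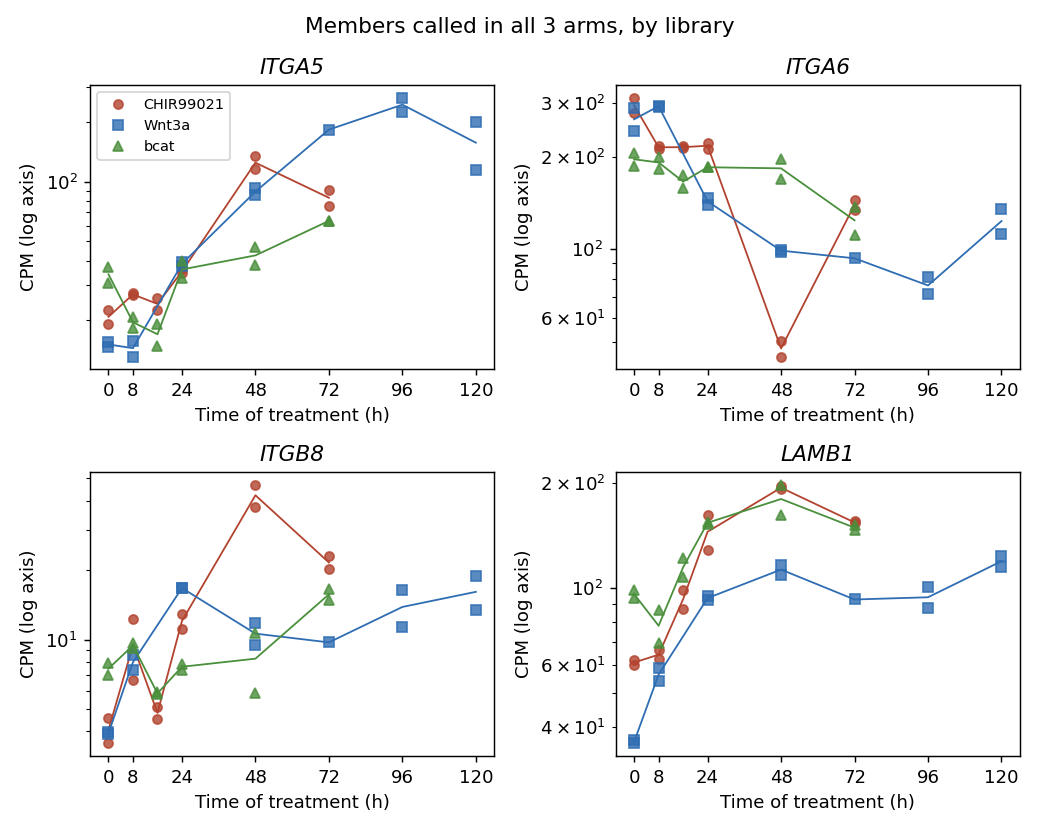
CPM on a log axis against hours of treatment for ITGA5, ITGA6, ITGB8 and LAMB1, with 1 point per library, lines through group means, CHIR99021 in red circles, Wnt3a in blue squares and bcat in green triangles. ITGA5 reached 265 and 225 CPM at Wnt3a 96 h while ITGA6 stood at 81.3 and 71.4 CPM there, and ITGA6 was lowest at CHIR99021 48 h, at 44.8 and 50.4 CPM.

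Among the laminin-binding receptors, ITGA6 fell in all 3 arms and ITGA3 fell under CHIR99021 and bcat. ITGA6 (chr2:172427354-172506282, plus strand, GRCh38, protein coding) encodes alpha6, the main laminin receptor chain of pluripotent cells. With CHIR99021, ITGA6 stood at 278 and 311 at 0 h, 218 and 212 at 8 h, 217 and 213 at 16 h, 222 and 212 at 24 h, 44.8 and 50.4 at 48 h, 134 and 145 at 72 h (CPM in each library). Under Wnt3a, ITGA6 stood at 242 and 288 at 0 h, 291 and 294 at 8 h, 147 and 139.9 at 24 h, 99.9 and 98.2 at 48 h, 93.5 at 72 h, 81.3 and 71.4 at 96 h, 135 and 112 at 120 h. In bcat cells, ITGA6 stood at 187 and 205 at 0 h, 183 and 200.2 at 8 h, 174 and 158 at 16 h, 185 and 185 at 24 h, 197 and 169.8 at 48 h, 137 and 112 at 72 h. Every library from 8 h on lay below both 0 h libraries under CHIR99021, as did every library from 24 h on under Wnt3a and both libraries at bcat 72 h. The log2 change of ITGA6 (fitted value ± SE against the arm's own 0 h, here and below) was -2.63 ± 0.12, adjusted p = 5.23e-17, at CHIR99021 48 h and -1.08 ± 0.11, adjusted p = 9.62e-09, at 72 h. It was -1.80 ± 0.12, adjusted p = 5.68e-13, at Wnt3a 96 h, with -0.89 at 24 h, -1.43 at 48 h, -1.51 at 72 h and -1.11 at 120 h. At bcat 72 h it was -0.66 ± 0.12, adjusted p = 5.6e-05. ITGA6 at 8 h of CHIR99021 (log2 change -0.45, adjusted p = 0.0036) missed the threshold without 0 h replicate 2 (adjusted p = 0.0765). ITGA6 at 16 h of CHIR99021 (log2 change -0.45, adjusted p = 0.00501) missed the threshold without 0 h replicate 2 (adjusted p = 0.0994) and 16 h replicate 2 (adjusted p = 0.0519). ITGA6 at 24 h of CHIR99021 (log2 change -0.44, adjusted p = 0.00702) missed the threshold without 0 h replicate 2 (adjusted p = 0.123) and 24 h replicate 2 (adjusted p = 0.0813).

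ITGA3 (chr17:50055968-50090481, plus strand) encodes alpha3, which binds the alpha3 and alpha5 laminins of epithelia. With CHIR99021, ITGA3 stood at 27.2 and 20.3 at 0 h, 15.1 and 17.8 at 8 h, 11.9 and 14 at 16 h, 16.3 and 13.6 at 24 h, 1.79 and 2.5 at 48 h, 5.07 and 8.53 at 72 h. In bcat cells, ITGA3 stood at 14.7 and 21.1 at 0 h, 14.2 and 8.35 at 8 h, 15 and 11.6 at 16 h, 10.5 and 13.3 at 24 h, 6.1 and 7.71 at 48 h, 5.13 and 4.96 at 72 h. Both 48 h libraries and both 72 h libraries were below the 0 h libraries in these arms, and CHIR99021 48 h was the lowest group. At CHIR99021 48 h the change was -3.49 ± 0.27, adjusted p = 5.32e-12. At CHIR99021 72 h it was -1.86 ± 0.24, adjusted p = 2.95e-07. At bcat 48 h it was -1.45 ± 0.27, adjusted p = 0.000125, and at bcat 72 h -1.87 ± 0.27, adjusted p = 3.51e-06. Under Wnt3a, ITGA3 stood at 23.6 and 21 at 0 h, 16.4 and 16.1 at 8 h, 26.2 and 21.6 at 24 h, 20.3 and 23 at 48 h, 15.5 at 72 h, 28.5 and 24.2 at 96 h, 29.3 and 32.5 at 120 h, and it was called at none of the 6 Wnt3a times. ITGA3 at 16 h of CHIR99021 (log2 change -0.86, adjusted p = 0.0078) missed the threshold without 0 h replicate 1 (adjusted p = 0.137) and 16 h replicate 1 (adjusted p = 0.0841). ITGA3 at 24 h of CHIR99021 (log2 change -0.67, adjusted p = 0.0417) missed the threshold without 0 h replicate 1 (adjusted p = 0.361), 24 h replicate 1 (adjusted p = 0.0749) and 24 h replicate 2 (adjusted p = 0.305). ITGA7 encodes alpha7, the laminin receptor chain of muscle. With CHIR99021, ITGA7 stood at 36.6 and 38.2 at 0 h, 42 and 43.1 at 8 h, 34.2 and 32.3 at 16 h, 30.3 and 35 at 24 h, 37 and 36.6 at 48 h, 41.8 and 41.1 at 72 h. Under Wnt3a, ITGA7 stood at 27.5 and 41.1 at 0 h, 31.5 and 32.5 at 8 h, 48.4 and 59 at 24 h, 47.8 and 43 at 48 h, 54.6 at 72 h, 77.6 and 71.2 at 96 h, 41.1 and 46.9 at 120 h. In bcat cells, ITGA7 stood at 22.6 and 32.1 at 0 h, 29.6 and 24.7 at 8 h, 21.5 and 27.3 at 16 h, 22.9 and 28.2 at 24 h, 28 and 26.7 at 48 h, 30.6 and 27 at 72 h. It rose at Wnt3a 96 h (1.05 ± 0.16, adjusted p = 4.46e-06), where both libraries were above every other library, and was called at no time of the other 2 arms. ITGA7 at 24 h of Wnt3a (log2 change 0.58, adjusted p = 0.01) missed the threshold without 0 h replicate 1 (adjusted p = 0.123) and 24 h replicate 2 (adjusted p = 0.158) and was 0.97 without 0 h replicate 2. ITGA7 at 72 h of Wnt3a (log2 change 0.60, adjusted p = 0.026) missed the threshold without 0 h replicate 1 (adjusted p = 0.174) and was 0.99 without 0 h replicate 2.

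Among the RGD-binding receptors, ITGA5 rose in all 3 arms and ITGAV rose under Wnt3a and fell early under CHIR99021. ITGA5 (chr12:54395261-54419460, minus strand, GRCh38, protein coding) encodes alpha5, the classical fibronectin receptor chain. With CHIR99021, ITGA5 stood at 22.6 and 19.1 at 0 h, 27.4 and 26.7 at 8 h, 22.5 and 25.9 at 16 h, 34.5 and 36.1 at 24 h, 134 and 115 at 48 h, 90.6 and 75.5 at 72 h (CPM). Under Wnt3a, ITGA5 stood at 15.5 and 14.7 at 0 h, 15.8 and 13.1 at 8 h, 37.7 and 39.4 at 24 h, 85.3 and 93.1 at 48 h, 183 at 72 h, 265 and 225 at 96 h, 201 and 114 at 120 h. In bcat cells, ITGA5 stood at 37.3 and 30.9 at 0 h, 20.8 and 18.4 at 8 h, 19.2 and 14.9 at 16 h, 32.5 and 39.7 at 24 h, 47 and 38 at 48 h, 63.6 and 63.4 at 72 h. From 24 h on, every library under CHIR99021 and Wnt3a was above both 0 h libraries of its arm, whereas the bcat libraries were below their 0 h at 8 and 16 h and above it at 48 and 72 h. The change was 2.59 ± 0.19, adjusted p = 3.49e-12, at CHIR99021 48 h and 2.00 ± 0.18, adjusted p = 9.27e-10, at 72 h. Under Wnt3a it was 1.37 at 24 h, 2.58 at 48 h, 3.62 at 72 h, 4.03 at 96 h and 3.40 at 120 h (adjusted p = 1.08e-14 at 96 h). In the bcat arm it was -0.96 ± 0.20, adjusted p = 0.00187, at 16 h and 0.92 ± 0.20, adjusted p = 0.000638, at 72 h. ITGA5 at 24 h of CHIR99021 (log2 change 0.77, adjusted p = 0.00416) missed the threshold without 0 h replicate 2 (adjusted p = 0.0884). ITGA5 at 8 h of bcat (log2 change -0.77, adjusted p = 0.00704) missed the threshold without 0 h replicate 1 (adjusted p = 0.0684) and 8 h replicate 2 (adjusted p = 0.0534).

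ITGAV (chr2:186590065-186680901, plus strand) encodes alphaV, the shared partner of beta3, beta5, beta6 and beta8. Under Wnt3a, ITGAV stood at 56.3 and 69.1 at 0 h, 55.6 and 62.9 at 8 h, 66.9 and 58.3 at 24 h, 110.2 and 113 at 48 h, 146 at 72 h, 175 and 162 at 96 h, 166 and 126 at 120 h. With CHIR99021, ITGAV stood at 67.9 and 77.7 at 0 h, 43.3 and 44.6 at 8 h, 44 and 40.7 at 16 h, 51.9 and 36.8 at 24 h, 62.9 and 58.5 at 48 h, 60.1 and 65.1 at 72 h. In bcat cells, ITGAV stood at 67.9 and 85.2 at 0 h, 53.5 and 55.7 at 8 h, 63.9 and 74.4 at 16 h, 53.5 and 59.7 at 24 h, 48.6 and 62.3 at 48 h, 65.6 and 50.4 at 72 h. All Wnt3a libraries from 48 h on were above both 0 h libraries, and all CHIR99021 libraries were below theirs. The change was 0.80 at 48 h, 1.19 at 72 h, 1.40 at 96 h and 1.19 at 120 h of Wnt3a (adjusted p = 4.24e-08 at 96 h) and -0.73 at 8 h and -0.78 at 16 h of CHIR99021 (adjusted p = 0.000923 and 0.000661). ITGAV at 24 h of CHIR99021 (log2 change -0.73, adjusted p = 0.00146) missed the threshold without 24 h replicate 2 (adjusted p = 0.111). ITGAV at 8 h of bcat (log2 change -0.50, adjusted p = 0.0291) missed the threshold without 0 h replicate 2 (adjusted p = 0.387), 8 h replicate 1 (adjusted p = 0.145) and 8 h replicate 2 (adjusted p = 0.0779). ITGAV at 48 h of bcat (log2 change -0.49, adjusted p = 0.0331) missed the threshold without 0 h replicate 2 (adjusted p = 0.399) and 48 h replicate 1 (adjusted p = 0.339). ITGA8, the alpha8 chain that binds nephronectin in the developing kidney, stayed below 5 CPM in every group. It had 4.58 and 3.57 CPM at Wnt3a 120 h and 4.03 CPM at Wnt3a 72 h, against 0 and 0.0587 CPM at Wnt3a 0 h, where both libraries together held 4 counts. It was called higher at Wnt3a 48, 72, 96 and 120 h (adjusted p = 9.33e-06, 2.55e-07, 1.44e-06 and 5.51e-08), and it kept each of those calls without 0 h replicate 2 (adjusted p = 0.0404, 0.0039, 0.0138 and 0.002). With 1 count at 0 h in each of the other 2 arms and at most 0.949 CPM in any of their libraries, its calls there rested on few counts, and no fold is given. The call at CHIR99021 16 h was lost without 0 h replicate 1 (adjusted p = 0.123), 0 h replicate 2 (adjusted p = 0.0679) and 16 h replicate 2 (adjusted p = 0.281). That at CHIR99021 72 h was lost without 72 h replicate 1 (adjusted p = 0.236), and that at bcat 72 h without 0 h replicate 1 (adjusted p = 0.0637), 0 h replicate 2 (adjusted p = 0.12) and 72 h replicate 2 (adjusted p = 0.0744).

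Set per kilobase of the longest coding transcript, so that chains can be compared, ITGA6 held 14.1% of the summed alpha-chain level at CHIR99021 48 h, against 60.01% at its 0 h, while ITGA5 held 46.5% at 48 h, against 5.4% at 0 h (means of 2 libraries). Under Wnt3a the share of ITGA6 was 11.1% at 96 h, against 59.9% at 0 h, and the share of ITGA5 was 45% at 96 h, against 4.36% at 0 h. ITGAV held 19.6% at Wnt3a 96 h, against 11.3% at 0 h. In the bcat arm ITGA6 held 37.6% at 72 h, against 49.5% at 0 h, and ITGA5 24.5% at 72 h, against 11% at 0 h. The ratio of ITGA5 to ITGA6 on this scale was 2.89 and 3.79 at CHIR99021 48 h, against 0.0778 and 0.103 at its 0 h. It was 0.659 and 0.853 at CHIR99021 72 h, so the 72 h libraries lay between the 0 h and the 48 h ones. Under Wnt3a the ratio was 3.98 and 4.12 at 96 h and 1.29 and 1.87 at 120 h, against 0.0647 and 0.081 at 0 h. The bcat libraries reached 0.587 and 0.717 at 72 h, against 0.19 and 0.252 at 0 h. These shares and ratios describe RNA and were not tested.

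**Figure D2:**
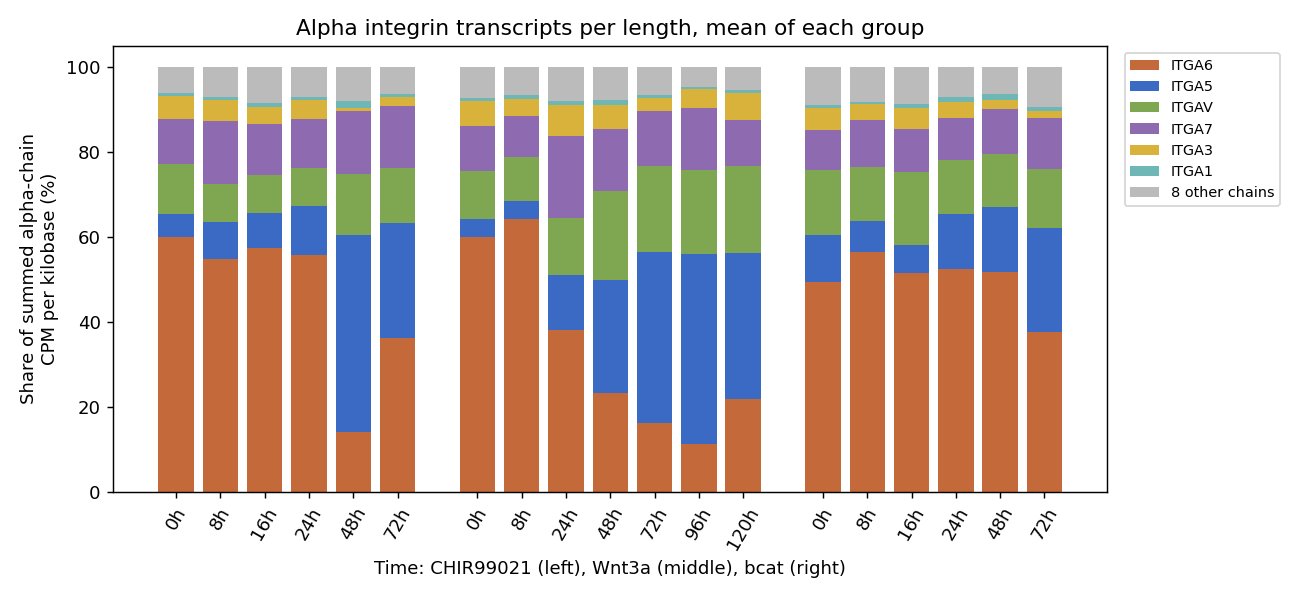
Share (%) of each alpha chain in the summed alpha-chain CPM per kilobase, as the mean of each group, for 6 chains and the other 8 together, with times in order within the CHIR99021, Wnt3a and bcat arms. The ITGA6 part shrinks to 14.1% at CHIR99021 48 h and 11.1% at Wnt3a 96 h, and the ITGA5 part is 46.5% and 45% there.

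Of the collagen-binding alpha chains, ITGA2 fell under CHIR99021 and the other 3 were low or changed little. ITGA2 encodes alpha2, the collagen receptor chain of platelets and epithelia. With CHIR99021, ITGA2 stood at 12.9 and 12.1 at 0 h, 3.66 and 3.75 at 8 h, 8.03 and 7.81 at 16 h, 13 and 8.9 at 24 h, 1.24 and 1.52 at 48 h, 3.61 and 4.11 at 72 h. Under Wnt3a, ITGA2 stood at 7.76 and 7.53 at 0 h, 9.11 and 6.89 at 8 h, 14.7 and 12.3 at 24 h, 4.9 and 4.26 at 48 h, 3.59 at 72 h, 12.3 and 4.82 at 96 h, 3.54 and 3.14 at 120 h. In bcat cells, ITGA2 stood at 5.88 and 10.5 at 0 h, 7.29 and 6.58 at 8 h, 11.1 and 9.9 at 16 h, 11.6 and 11.4 at 24 h, 6.04 and 5.23 at 48 h, 7.95 and 4.75 at 72 h. Under CHIR99021 it was low at 8 h, close to its 0 h libraries at 24 h and lowest at 48 h. ITGA2 changed by -1.75 ± 0.29, adjusted p = 3.66e-05, at 8 h. It changed by -3.19 ± 0.33, adjusted p = 2.89e-09, at 48 h. The value was -1.71 ± 0.29, adjusted p = 3.44e-05, at 72 h. ITGA2 at 24 h of Wnt3a (log2 change 0.83, adjusted p = 0.0469) missed the threshold with any 1 of its 4 libraries left out (adjusted p = 0.0776 to 0.298). ITGA2 at 72 h of Wnt3a (log2 change -1.08, adjusted p = 0.0473) missed the threshold without 0 h replicate 1 (adjusted p = 0.0764) and 0 h replicate 2 (adjusted p = 0.193). ITGA2 at 120 h of Wnt3a (log2 change -1.18, adjusted p = 0.00628) missed the threshold without 0 h replicate 2 (adjusted p = 0.0965) and 120 h replicate 2 (adjusted p = 0.0512). ITGA1, the alpha1 collagen receptor chain, ranged from 3.06 to 11.2 CPM. With CHIR99021, ITGA1 stood at 6.89 and 6.28 at 0 h, 5.89 and 7.26 at 8 h, 7.22 and 4.72 at 16 h, 5.87 and 4.47 at 24 h, 9.28 and 11.2 at 48 h, 4.72 and 5.82 at 72 h. Under Wnt3a, ITGA1 stood at 8.09 and 6.53 at 0 h, 7.26 and 7.67 at 8 h, 6.49 and 6.69 at 24 h, 6.85 and 9.97 at 48 h, 6.33 at 72 h, 3.44 and 5.67 at 96 h, 6.75 and 5.99 at 120 h. In bcat cells, ITGA1 stood at 6.18 and 8.02 at 0 h, 3.2 and 3.14 at 8 h, 7.14 and 5.14 at 16 h, 7.61 and 6.2 at 24 h, 8.83 and 9.15 at 48 h, 7.65 and 3.06 at 72 h, and this arm held its only call. ITGA1 at 8 h of bcat (log2 change -1.20, adjusted p = 0.00971) missed the threshold without 0 h replicate 2 (adjusted p = 0.219) and 8 h replicate 1 (adjusted p = 0.0702). ITGA10 was at most 0.797 CPM in any library and never called. ITGA11 ranged from 0 to 7.11 CPM. ITGA11 at 96 h of Wnt3a (log2 change 2.12, adjusted p = 0.0021) missed the threshold without 0 h replicate 2 (adjusted p = 0.122) and 96 h replicate 1 (adjusted p = 0.131).

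The alpha4 and alpha9 chains bind VCAM-1, tenascin and fibronectin segments rather than RGD. ITGA4 was low but fell in the bcat and CHIR99021 arms. In bcat cells, ITGA4 stood at 7.65 and 4.49 at 0 h, 3.33 and 3.54 at 8 h, 4.05 and 4.38 at 16 h, 2.11 and 1.88 at 24 h, 0.912 and 1.57 at 48 h, 1.11 and 1.16 at 72 h. With CHIR99021, ITGA4 stood at 3.82 and 3.55 at 0 h, 3.71 and 3.13 at 8 h, 3.65 and 3.67 at 16 h, 2.89 and 1.73 at 24 h, 0.928 and 1.25 at 48 h, 1.23 and 1.55 at 72 h. Under Wnt3a, ITGA4 stood at 2.26 and 3.05 at 0 h, 3.05 and 2.66 at 8 h, 3.57 and 1.66 at 24 h, 4.03 and 2.04 at 48 h, 2.01 at 72 h, 0.871 and 1.18 at 96 h, 0.589 and 1.21 at 120 h. The latest libraries were below the 0 h libraries in each arm. ITGA4 changed by -2.31 ± 0.43, adjusted p = 0.00015, at bcat 48 h. It changed by -2.35 ± 0.43, adjusted p = 8.94e-05, at bcat 72 h. At CHIR99021 48 h the value was -1.77 ± 0.37, adjusted p = 0.000346. ITGA4 at 72 h of CHIR99021 (log2 change -1.44, adjusted p = 0.00333) missed the threshold without 72 h replicate 1 (adjusted p = 0.0883). ITGA4 at 96 h of Wnt3a (log2 change -1.46, adjusted p = 0.00375) missed the threshold without 0 h replicate 2 (adjusted p = 0.248) and 96 h replicate 1 (adjusted p = 0.0504). ITGA4 at 120 h of Wnt3a (log2 change -1.66, adjusted p = 0.00338) missed the threshold without 0 h replicate 2 (adjusted p = 0.226) and 120 h replicate 1 (adjusted p = 0.0876). ITGA4 at 24 h of bcat (log2 change -1.54, adjusted p = 0.00561) missed the threshold without 0 h replicate 1 (adjusted p = 0.089) and 24 h replicate 2 (adjusted p = 0.0656). For ITGA9 no call was kept with every single library left out. With CHIR99021, ITGA9 stood at 4.07 and 2.58 at 0 h, 1.95 and 4.17 at 8 h, 3.81 and 2.61 at 16 h, 5.38 and 1.84 at 24 h, 6.81 and 9.41 at 48 h, 6.34 and 3.57 at 72 h. Under Wnt3a, ITGA9 stood at 10.7 and 4.23 at 0 h, 4.49 and 3.84 at 8 h, 5.26 and 6.91 at 24 h, 8.16 and 9.23 at 48 h, 17.1 at 72 h, 13.4 and 14.2 at 96 h, 15.1 and 12 at 120 h. In bcat cells, ITGA9 stood at 7.35 and 3.74 at 0 h, 3.43 and 2.95 at 8 h, 3.97 and 4.38 at 16 h, 4.86 and 4.51 at 24 h, 3.76 and 4.44 at 48 h, 15.2 and 17 at 72 h. The bcat libraries at 72 h and the Wnt3a libraries from 72 h on were above their 0 h libraries. ITGA9 at 48 h of CHIR99021 (log2 change 1.30, adjusted p = 0.013) missed the threshold without 0 h replicate 2 (adjusted p = 0.168) and 48 h replicate 2 (adjusted p = 0.106). ITGA9 at 72 h of Wnt3a (log2 change 1.50, adjusted p = 0.0313) missed the threshold without 0 h replicate 2 (adjusted p = 0.508). ITGA9 at 96 h of Wnt3a (log2 change 1.19, adjusted p = 0.0274) missed the threshold without 0 h replicate 2 (adjusted p = 0.637), 96 h replicate 1 (adjusted p = 0.0631) and 96 h replicate 2 (adjusted p = 0.102). ITGA9 at 120 h of Wnt3a (log2 change 1.16, adjusted p = 0.0436) missed the threshold without 0 h replicate 2 (adjusted p = 0.7), 120 h replicate 1 (adjusted p = 0.191) and 120 h replicate 2 (adjusted p = 0.0669). ITGA9 at 72 h of bcat (log2 change 1.66, adjusted p = 0.00691) missed the threshold without 0 h replicate 2 (adjusted p = 0.207).

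The leukocyte integrins reached 0.845 CPM for ITGB7, 2.06 CPM for ITGB2, 7.06 CPM for ITGAM and 12.2 CPM for ITGAE. ITGAM encodes alphaM of the macrophage receptor Mac-1, and ITGB2 its beta2 partner. In bcat cells, ITGAM stood at 7.06 and 3.85 at 0 h, 0.947 and 2.36 at 8 h, 0.545 and 1.14 at 16 h, 0.639 and 0.78 at 24 h, 1.2 and 1.05 at 48 h, 0.743 and 0.844 at 72 h. With CHIR99021, ITGAM stood at 0.453 and 0.533 at 0 h, 0.837 and 1.28 at 8 h, 1.22 and 0.654 at 16 h, 1.59 and 0.793 at 24 h, 0.722 and 0.762 at 48 h, 1.43 and 1.55 at 72 h. Under Wnt3a, ITGAM stood at 0 and 0.705 at 0 h, 0.463 and 0.676 at 8 h, 1.43 and 1.49 at 24 h, 0.653 and 1.23 at 48 h, 0.787 at 72 h, 2.76 and 1.65 at 96 h, 0.131 and 0.285 at 120 h. The uninduced bcat line was thus the group with the highest ITGAM, and all its treated libraries were lower. ITGAM changed by -2.85 ± 0.52, adjusted p = 0.000252, at bcat 24 h. It changed by -2.20 ± 0.53, adjusted p = 0.0027, at 48 h. The value was -2.72 ± 0.56, adjusted p = 0.000353, at 72 h. ITGAM at 8 h of bcat (log2 change -1.77, adjusted p = 0.0128) missed the threshold without 0 h replicate 1 (adjusted p = 0.137) and 8 h replicate 1 (adjusted p = 0.235). ITGAM at 16 h of bcat (log2 change -2.77, adjusted p = 0.000669) missed the threshold without 16 h replicate 1 (adjusted p = 0.05). ITGAM at 72 h of CHIR99021 (log2 change 1.56, adjusted p = 0.0259) missed the threshold with any 1 of its 4 libraries left out (adjusted p = 0.0758 to 0.129). ITGAM at 96 h of Wnt3a (1.88 ± 0.54, adjusted p = 0.00581) missed the threshold without 96 h replicate 1 (adjusted p = 0.0713). Its 0 h replicate 1 held 0 counts, so no change is given without 0 h replicate 2. The 9 blood markers summed to 12.6 to 12.8 CPM at bcat 0 h, where 4 of the 9 were at 0, and to 5.17 to 6.02 CPM at bcat 72 h and 9.98 to 10.4 CPM at CHIR99021 0 h. Their part in the ITGAM values was not tested. ITGB2 was at most 2.06 CPM in any library and was called higher at CHIR99021 48 h (1.41 and 0.925 CPM, against 0.151 and 0.118 CPM at 0 h; 3.11 ± 0.70, adjusted p = 0.000739). ITGB2 at 72 h of CHIR99021 (log2 change 2.83, adjusted p = 0.00309) missed the threshold without 0 h replicate 2 (adjusted p = 0.0601). ITGB7 was at most 0.845 CPM. ITGB7 at 48 h of Wnt3a (log2 change 3.60, adjusted p = 0.0237) missed the threshold without 0 h replicate 2 (adjusted p = 0.34) and 48 h replicate 2 (adjusted p = 0.157). ITGAE, the alphaE chain that binds E-cadherin, ranged from 4.41 to 12.2 CPM. ITGAE at 24 h of Wnt3a (log2 change -0.74, adjusted p = 0.0437) missed the threshold with any 1 of its 4 libraries left out (adjusted p = 0.0724 to 0.258). ITGAE at 96 h of Wnt3a (log2 change -0.87, adjusted p = 0.00846) missed the threshold without 0 h replicate 2 (adjusted p = 0.0736) and 96 h replicate 1 (adjusted p = 0.0909).

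Among the beta chains, ITGB8 and ITGB5 rose, while ITGB1 moved by less than a log2 unit at every time. ITGB8 (chr7:20330702-20415754, plus strand, GRCh38, protein coding) encodes beta8, which with alphaV releases active TGF-beta from its latent complex. With CHIR99021, ITGB8 stood at 4.58 and 3.55 at 0 h, 12.2 and 6.69 at 8 h, 4.54 and 5.08 at 16 h, 12.9 and 11.1 at 24 h, 46.9 and 37.5 at 48 h, 23 and 20.2 at 72 h. Under Wnt3a, ITGB8 stood at 3.88 and 3.98 at 0 h, 8.56 and 7.41 at 8 h, 16.7 and 16.7 at 24 h, 11.8 and 9.48 at 48 h, 9.73 at 72 h, 16.4 and 11.3 at 96 h, 18.8 and 13.4 at 120 h. In bcat cells, ITGB8 stood at 7.06 and 7.92 at 0 h, 9.24 and 9.63 at 8 h, 5.79 and 5.9 at 16 h, 7.86 and 7.39 at 24 h, 10.7 and 5.88 at 48 h, 14.9 and 16.6 at 72 h. All Wnt3a libraries and all CHIR99021 libraries except 16 h replicate 1 were above both 0 h libraries of their arm, CHIR99021 48 h was the highest group, and in the bcat arm the 72 h libraries were the highest. The change was 3.39 ± 0.25, adjusted p = 3.42e-12, at CHIR99021 48 h, with 1.57 at 24 h and 2.43 at 72 h. Under Wnt3a it was 2.08 at 24 h, 1.81 at 96 h and 2.02 at 120 h (adjusted p = 1.84e-06, 3.39e-06 and 1.12e-06), and at bcat 72 h 1.04 ± 0.28, adjusted p = 0.00479. ITGB8 at 8 h of CHIR99021 (log2 change 1.25, adjusted p = 0.000384) missed the threshold without 8 h replicate 1 (adjusted p = 0.0833). ITGB8 at 8 h of Wnt3a (log2 change 1.00, adjusted p = 0.031) missed the threshold with any 1 of its 4 libraries left out (adjusted p = 0.0734 to 0.262). ITGB8 at 48 h of Wnt3a (log2 change 1.40, adjusted p = 0.000413) missed the threshold without 0 h replicate 2 (adjusted p = 0.0583). ITGB8 at 72 h of Wnt3a (log2 change 1.30, adjusted p = 0.00305) missed the threshold without 0 h replicate 2 (adjusted p = 0.102).

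ITGB5 encodes beta5, which with alphaV binds vitronectin. Under Wnt3a, ITGB5 stood at 73.1 and 112 at 0 h, 125 and 134 at 8 h, 229 and 253 at 24 h, 213 and 234 at 48 h, 193 at 72 h, 182 and 138 at 96 h, 137 and 107 at 120 h. With CHIR99021, ITGB5 stood at 84.2 and 86.5 at 0 h, 55.1 and 59.3 at 8 h, 75.5 and 95.3 at 16 h, 91.8 and 99.5 at 24 h, 182 and 180.3 at 48 h, 139.8 and 119 at 72 h. In bcat cells, ITGB5 stood at 124 and 111 at 0 h, 94 and 95.3 at 8 h, 131 and 118 at 16 h, 90.7 and 126 at 24 h, 126 and 120.2 at 48 h, 122 and 135 at 72 h. The Wnt3a level was highest at 24 h, and by 120 h the libraries overlapped those of 0 h. The change was 1.34 at 24 h, 1.23 at 48 h and 1.02 at 72 h of Wnt3a (adjusted p = 8.59e-07, 2.13e-06 and 0.000299) and 1.09 ± 0.16, adjusted p = 3.43e-06, at CHIR99021 48 h. ITGB5 at 8 h of CHIR99021 (log2 change -0.58, adjusted p = 0.01) missed the threshold without 0 h replicate 2 (adjusted p = 0.0638) and 8 h replicate 1 (adjusted p = 0.104). ITGB5 at 72 h of CHIR99021 (log2 change 0.60, adjusted p = 0.0053) missed the threshold without 72 h replicate 1 (adjusted p = 0.0939). ITGB5 at Wnt3a 96 h kept its call (0.75 ± 0.16, adjusted p = 0.000512) but was 1.13 without 0 h replicate 2. It was called at no bcat time. ITGB1, the common partner of the laminin, fibronectin and collagen binding chains, was the most abundant integrin chain per kilobase and ranged from 227 to 476 CPM. It fell at CHIR99021 8 h (-0.50 ± 0.12, adjusted p = 0.0024) and 16 h (-0.72 ± 0.12, adjusted p = 4.73e-05) and at bcat 8 h (-0.63 ± 0.12, adjusted p = 0.000288). Its other 5 calls against 0 h, all under 0.5 in size, were each lost without at least 1 library. ITGB1 at 24 h of CHIR99021 (log2 change -0.36, adjusted p = 0.0359) missed the threshold with any 1 of its 4 libraries left out (adjusted p = 0.0876 to 0.205). ITGB1 at 72 h of Wnt3a (log2 change 0.46, adjusted p = 0.0251) missed the threshold without 0 h replicate 1 (adjusted p = 0.146). ITGB1 at 120 h of Wnt3a (log2 change 0.36, adjusted p = 0.0249) missed the threshold without 0 h replicate 1 (adjusted p = 0.191) and 120 h replicate 2 (adjusted p = 0.114). ITGB1 at 24 h of bcat (log2 change -0.44, adjusted p = 0.0115) missed the threshold without 0 h replicate 2 (adjusted p = 0.261) and 24 h replicate 1 (adjusted p = 0.0784). ITGB1 at 72 h of bcat (log2 change -0.37, adjusted p = 0.0185) missed the threshold without 0 h replicate 2 (adjusted p = 0.343) and 72 h replicate 2 (adjusted p = 0.144). ITGB4, the beta4 partner of alpha6 in hemidesmosomes, ranged from 0.971 to 8.08 CPM and was never called. ITGB6 was at most 0.535 CPM and never called, and ITGB3, the platelet beta3 chain, was at most 0.535 CPM. ITGB3 at 120 h of Wnt3a (log2 change 2.73, adjusted p = 0.0402) missed the threshold with any 1 of its 4 libraries left out (adjusted p = 0.0666 to 0.329).

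**Figure D3:**
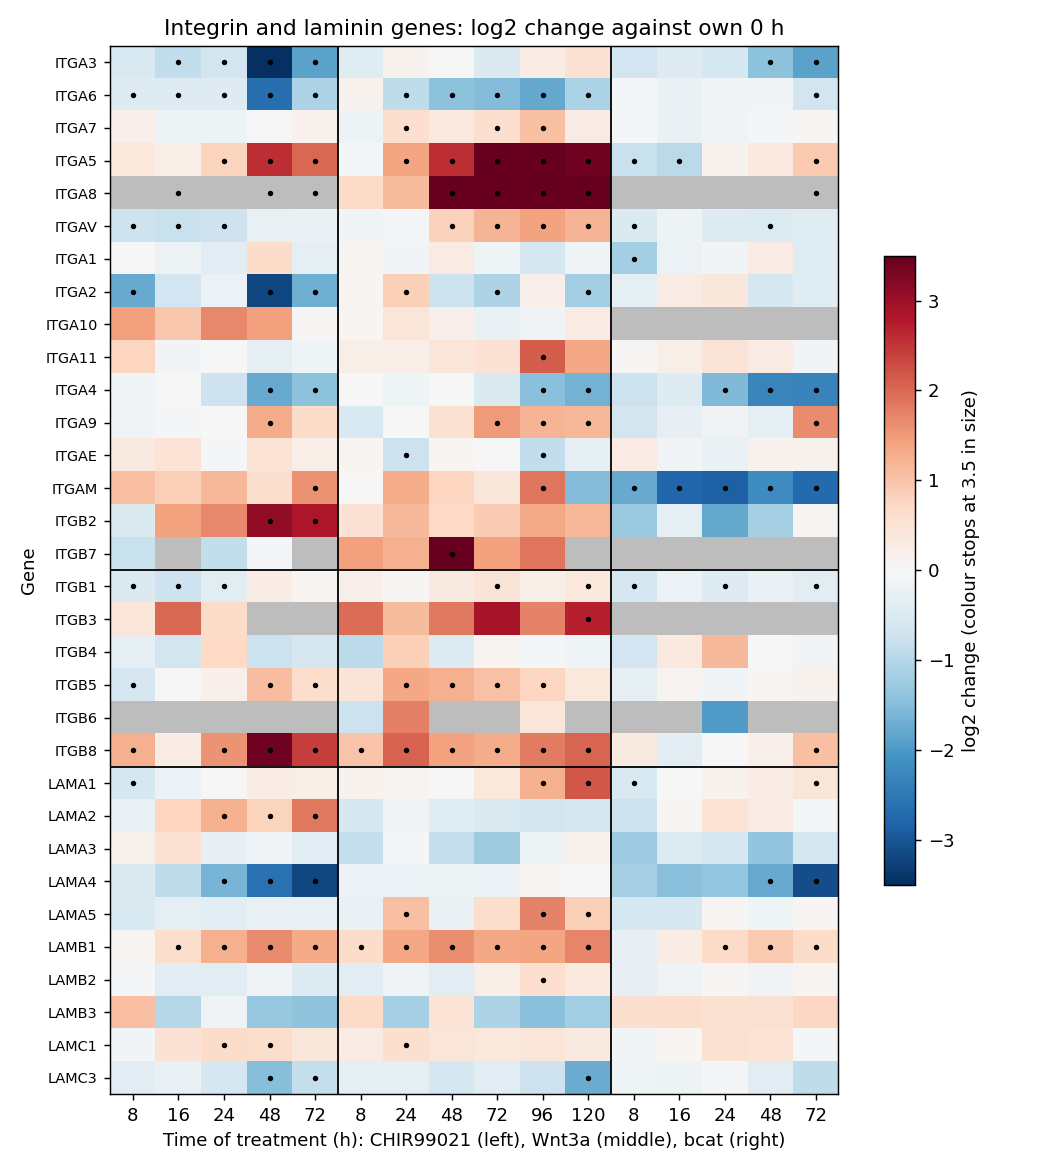
Log2 change against the arm's own 0 h for all 32 genes (rows, by alpha chains and leukocyte integrins, beta chains and laminins) at each time of CHIR99021, Wnt3a and bcat (columns). Colour stops at 3.5 in size, a black dot marks a call, and grey marks a value resting on 3 or fewer counts in a group. ITGA6 is blue and ITGA5, ITGB8 and LAMB1 are red through most late columns, and ITGAV is red from 48 h on under Wnt3a.

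Of the laminin alpha chains, LAMA1 and LAMA5 rose late under Wnt3a, LAMA2 rose under CHIR99021 and LAMA4 fell under CHIR99021 and bcat. LAMA1 encodes the alpha1 chain, the main laminin alpha chain of the early embryo. Under Wnt3a, LAMA1 stood at 51.1 and 68.2 at 0 h, 67.3 and 67.3 at 8 h, 68.3 and 62.8 at 24 h, 60.9 and 60.03 at 48 h, 79.4 at 72 h, 149.6 and 143 at 96 h, 284 and 267 at 120 h. With CHIR99021, LAMA1 stood at 115 and 114 at 0 h, 70.1 and 81.1 at 8 h, 91.4 and 109 at 16 h, 111 and 121 at 24 h, 126 and 147 at 48 h, 130.1 and 134 at 72 h. In bcat cells, LAMA1 stood at 91.5 and 93.2 at 0 h, 63.6 and 64.8 at 8 h, 94.8 and 89.7 at 16 h, 94.3 and 106 at 24 h, 114 and 109 at 48 h, 133 and 114 at 72 h. The Wnt3a libraries at 96 and 120 h were above all earlier Wnt3a libraries, and at 8 h the CHIR99021 and bcat libraries were below their 0 h. At Wnt3a 96 h LAMA1 changed by 1.25 ± 0.12, adjusted p = 1.45e-09. At Wnt3a 120 h it changed by 2.17 ± 0.12, adjusted p = 3.12e-14. At CHIR99021 8 h the change was -0.60 ± 0.12, adjusted p = 0.000262, and at bcat 8 h -0.53 ± 0.12, adjusted p = 0.00217. LAMA1 at 72 h of bcat (log2 change 0.42, adjusted p = 0.00903) missed the threshold without 0 h replicate 2 (adjusted p = 0.0527) and 72 h replicate 1 (adjusted p = 0.128). The other arms were not sampled at 96 and 120 h.

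LAMA5 encodes alpha5, the chain of the laminin that epiblast cells make and on which pluripotent cells are often grown. Under Wnt3a, LAMA5 stood at 59.8 and 61.6 at 0 h, 51.8 and 52.4 at 8 h, 101 and 152 at 24 h, 41.9 and 61.2 at 48 h, 94.1 at 72 h, 239 and 165 at 96 h, 129 and 87.5 at 120 h. With CHIR99021, LAMA5 stood at 93.7 and 69.2 at 0 h, 63.4 and 48.8 at 8 h, 57.7 and 72.3 at 16 h, 58.5 and 65.8 at 24 h, 74.8 and 61.7 at 48 h, 68.8 and 67.5 at 72 h. In bcat cells, LAMA5 stood at 65.3 and 66.7 at 0 h, 51.2 and 33.8 at 8 h, 47.2 and 42.6 at 16 h, 71.1 and 64.9 at 24 h, 47.2 and 72.1 at 48 h, 66.1 and 72.3 at 72 h. It rose at Wnt3a 96 h (1.73 ± 0.26, adjusted p = 9.45e-06), and its libraries were above 0 h at 24 h too, but not at 48 h. LAMA5 at 24 h of Wnt3a (log2 change 1.05, adjusted p = 0.00446) missed the threshold without 0 h replicate 2 (adjusted p = 0.0605) and 24 h replicate 2 (adjusted p = 0.102). LAMA5 at 120 h of Wnt3a (log2 change 0.83, adjusted p = 0.0172) missed the threshold without 0 h replicate 1 (adjusted p = 0.0631), 0 h replicate 2 (adjusted p = 0.12) and 120 h replicate 1 (adjusted p = 0.205). LAMA2 encodes alpha2, the chain of the muscle laminin. With CHIR99021, LAMA2 stood at 2.87 and 3.14 at 0 h, 2.43 and 2.66 at 8 h, 4.79 and 5.23 at 16 h, 8.16 and 6.34 at 24 h, 5.4 and 4.84 at 48 h, 9.28 and 12.6 at 72 h. Under Wnt3a, LAMA2 stood at 8.73 and 4.54 at 0 h, 4.3 and 3.55 at 8 h, 5.32 and 5.41 at 24 h, 3.81 and 4.54 at 48 h, 4 at 72 h, 3.44 and 3.88 at 96 h, 3.6 and 3.92 at 120 h. In bcat cells, LAMA2 stood at 6.76 and 11.8 at 0 h, 5.96 and 5.6 at 8 h, 11.7 and 8 at 16 h, 11.6 and 15.2 at 24 h, 10.9 and 12.8 at 48 h, 7.58 and 11.6 at 72 h. It rose at CHIR99021 24 h (1.25 ± 0.27, adjusted p = 0.00158) and 72 h (1.84 ± 0.27, adjusted p = 3.16e-06), and was called at no time of the other arms. LAMA2 at 48 h of CHIR99021 (log2 change 0.77, adjusted p = 0.0283) missed the threshold with any 1 of its 4 libraries left out (adjusted p = 0.0539 to 0.163). LAMA4, the alpha4 chain of vessels and mesenchyme, was at most 3 CPM in any library. It had 0.241 and 0.272 CPM at CHIR99021 48 h and 0.174 and 0.155 CPM at 72 h, against 1.86 and 1.3 CPM at 0 h (-2.60 ± 0.56, adjusted p = 0.00048; -3.17 ± 0.59, adjusted p = 0.000104). It had 0.223 and 0.316 CPM at bcat 72 h, against 2.35 and 2.25 CPM at 0 h (-3.09 ± 0.68, adjusted p = 0.000777). LAMA4 at 24 h of CHIR99021 (log2 change -1.63, adjusted p = 0.038) missed the threshold with any 1 of its 4 libraries left out (adjusted p = 0.0585 to 0.221). LAMA4 at 48 h of bcat (log2 change -1.77, adjusted p = 0.0311) missed the threshold without 0 h replicate 1 (adjusted p = 0.0796), 0 h replicate 2 (adjusted p = 0.14) and 48 h replicate 1 (adjusted p = 0.27). LAMA3, the epidermal alpha3 chain, was at most 1.69 CPM and never called.

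Of the laminin beta and gamma chains, LAMB1 rose in all 3 arms. LAMB1 (chr7:107923799-108003255, minus strand, GRCh38, protein coding) encodes beta1, the beta chain of most embryonic laminins. With CHIR99021, LAMB1 stood at 60.1 and 62.2 at 0 h, 62.6 and 66.2 at 8 h, 87.1 and 98.6 at 16 h, 161 and 128 at 24 h, 195 and 192 at 48 h, 155 and 153 at 72 h. Under Wnt3a, LAMB1 stood at 35.9 and 36.6 at 0 h, 54.2 and 58.8 at 8 h, 94.7 and 92.4 at 24 h, 109 and 116 at 48 h, 92.7 at 72 h, 101 and 87.5 at 96 h, 124 and 115 at 120 h. In bcat cells, LAMB1 stood at 93.5 and 98.5 at 0 h, 86.3 and 69.6 at 8 h, 122 and 107 at 16 h, 152 and 155 at 24 h, 198 and 162 at 48 h, 151 and 147 at 72 h. Its libraries were above both 0 h libraries at every CHIR99021 and Wnt3a time and from 16 h on in the bcat arm, where the 8 h libraries were below. The change was 0.60 at 16 h, 1.24 at 24 h, 1.66 at 48 h and 1.33 at 72 h of CHIR99021 (adjusted p = 1.49e-12 at 48 h). It was 0.64 at 8 h, 1.36 at 24 h, 1.64 at 48 h, 1.35 at 72 h, 1.37 at 96 h and 1.71 at 120 h of Wnt3a (adjusted p = 5.88e-11 at 48 h), and 0.68 at 24 h, 0.90 at 48 h and 0.63 at 72 h of bcat (adjusted p = 1.22e-06 at 48 h). None of these 13 calls was lost with 1 library left out. Of the other beta chains, LAMB2, found in nerve, muscle and kidney laminins, ranged from 46.3 to 135 CPM with 1 call, and LAMB3, the epidermal beta3 chain, was at most 1.31 CPM and never called. LAMB2 at 96 h of Wnt3a (log2 change 0.59, adjusted p = 0.0288) missed the threshold without 0 h replicate 1 (adjusted p = 0.125), 0 h replicate 2 (adjusted p = 0.0905) and 96 h replicate 1 (adjusted p = 0.328).

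LAMC1 encodes gamma1, shared by most laminins, and ranged from 85.4 to 335 CPM. LAMC1 at 24 h of CHIR99021 (log2 change 0.64, adjusted p = 0.0219) missed the threshold without 0 h replicate 1 (adjusted p = 0.198), 24 h replicate 1 (adjusted p = 0.0918) and 24 h replicate 2 (adjusted p = 0.0971). LAMC1 at 48 h of CHIR99021 (log2 change 0.62, adjusted p = 0.0125) missed the threshold without 0 h replicate 1 (adjusted p = 0.125) and 48 h replicate 1 (adjusted p = 0.0915). LAMC1 at 24 h of Wnt3a (log2 change 0.55, adjusted p = 0.0447) missed the threshold without 0 h replicate 1 (adjusted p = 0.358), 24 h replicate 1 (adjusted p = 0.0655) and 24 h replicate 2 (adjusted p = 0.244) and was 0.96 without 0 h replicate 2. LAMC3, the minor gamma3 chain, fell at CHIR99021 48 h and Wnt3a 120 h. With CHIR99021, LAMC3 stood at 19.6 and 18.3 at 0 h, 15.4 and 13.5 at 8 h, 14 and 17.6 at 16 h, 8.96 and 15.8 at 24 h, 5.19 and 8.49 at 48 h, 10.8 and 10.3 at 72 h. Under Wnt3a, LAMC3 stood at 19.7 and 23.1 at 0 h, 18.1 and 16.5 at 8 h, 17.5 and 16.9 at 24 h, 14.6 and 14.2 at 48 h, 16.9 at 72 h, 17.2 and 9.46 at 96 h, 4.06 and 9.13 at 120 h. In bcat cells, LAMC3 stood at 11.8 and 13.7 at 0 h, 10.9 and 12.6 at 8 h, 9.5 and 14.1 at 16 h, 12 and 12.5 at 24 h, 9.18 and 10.6 at 48 h, 5.27 and 8.96 at 72 h. The change was -1.49 ± 0.30, adjusted p = 0.000299, at CHIR99021 48 h and -1.74 ± 0.32, adjusted p = 0.000163, at Wnt3a 120 h, with both libraries below 0 h each time. LAMC3 at 72 h of CHIR99021 (log2 change -0.84, adjusted p = 0.0349) missed the threshold with any 1 of its 4 libraries left out (adjusted p = 0.0921 to 0.142). Per kilobase, LAMB1 held 74.3% of the laminin beta level at CHIR99021 72 h, against 45.7% at 0 h, and 65.1% at Wnt3a 48 h, against 31.8% at 0 h. LAMA1 held 73.8% of the laminin alpha level at Wnt3a 120 h, against 49.1% at 0 h, and LAMC1 held 79.5% to 96.5% of the gamma level in the means of all groups.

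**Figure D4:**
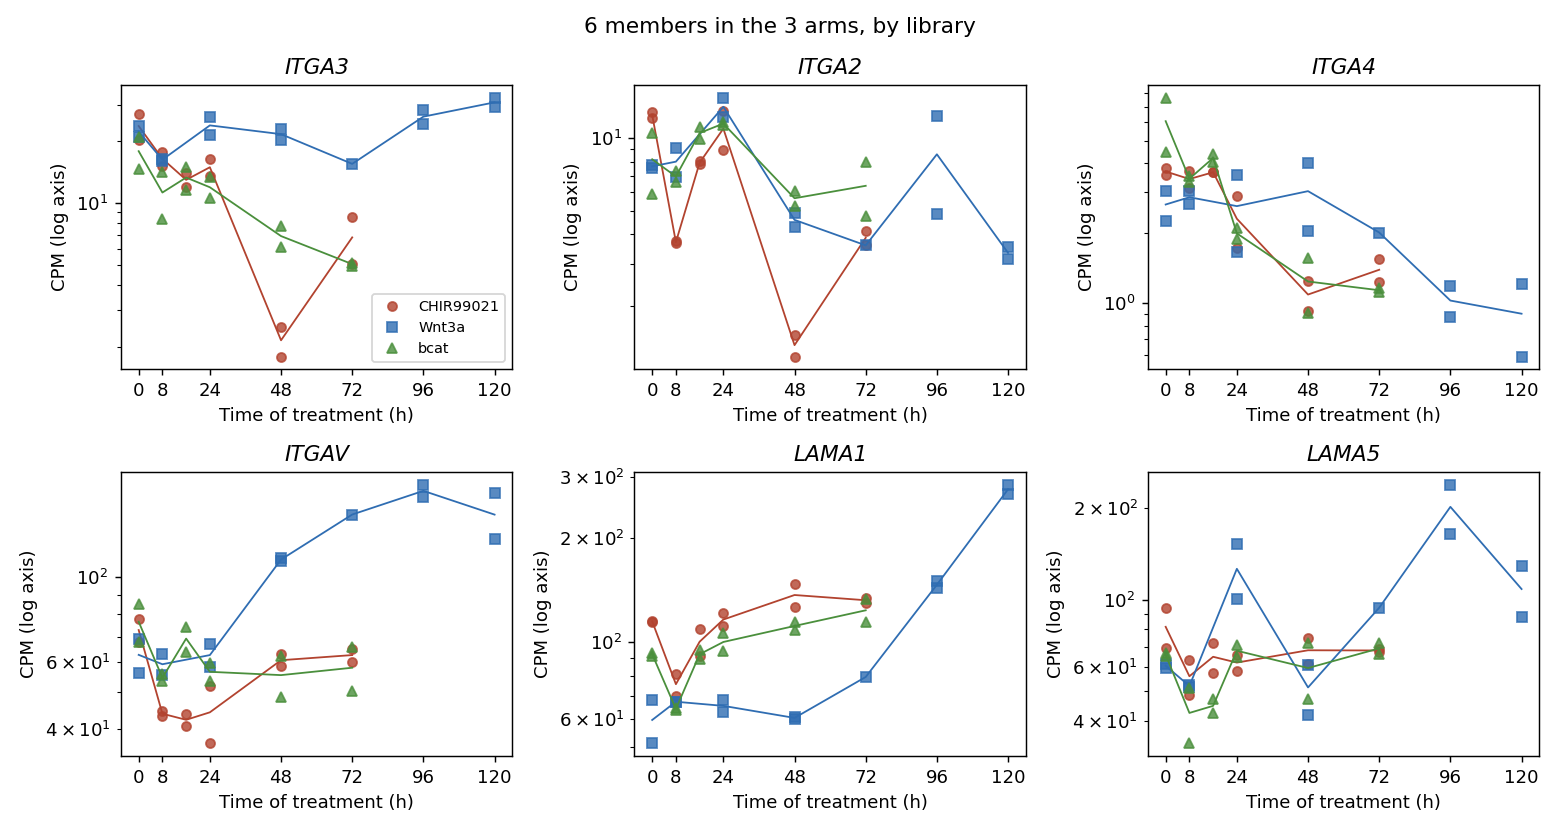
CPM on a log axis against hours of treatment for ITGA3, ITGA2, ITGA4, ITGAV, LAMA1 and LAMA5, drawn as in the plot of ITGA5 and ITGA6 by library. ITGAV, LAMA1 and LAMA5 reach their highest values under Wnt3a at 96 or 120 h, and ITGA3 and ITGA2 their lowest at CHIR99021 48 h (1.79 and 2.5 CPM for ITGA3 and 1.24 and 1.52 CPM for ITGA2).

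ITGA5, ITGB8 and LAMB1, which rose in all 3 arms, and ITGA6, which fell in all 3, are shown with the sequence around their annotated starts (250 bases before to 50 after, RefSeq, GRCh38.p14, 5′ to 3′ on the gene's strand), since WNT acts on promoters through TCF and LEF factors. Starts were listed for 24 of the 32 members, and ITGA6 has 2, of which the first is shown. The windows are ITGA5 at chr12:54419217-54419516 (minus strand), ITGB8 at chr7:20330650-20330949 (plus strand), LAMB1 at chr7:108003112-108003411 (minus strand) and ITGA6 at chr2:172427086-172427385 (plus strand). Capitals mark the GC box GGGCGG on either strand (CCGCCC on the other).
ITGA5: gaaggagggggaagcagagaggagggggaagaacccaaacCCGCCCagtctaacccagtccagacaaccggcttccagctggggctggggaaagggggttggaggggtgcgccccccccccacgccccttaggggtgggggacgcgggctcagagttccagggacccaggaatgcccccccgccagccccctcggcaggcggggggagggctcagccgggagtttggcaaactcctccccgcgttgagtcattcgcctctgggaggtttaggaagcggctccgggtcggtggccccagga
ITGB8: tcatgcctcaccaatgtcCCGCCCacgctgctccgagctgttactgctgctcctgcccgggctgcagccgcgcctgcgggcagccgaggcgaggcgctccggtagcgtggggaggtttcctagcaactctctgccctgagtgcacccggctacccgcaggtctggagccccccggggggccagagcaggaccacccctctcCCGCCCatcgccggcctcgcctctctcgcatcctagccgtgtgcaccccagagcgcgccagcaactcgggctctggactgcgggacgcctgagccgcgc
LAMB1: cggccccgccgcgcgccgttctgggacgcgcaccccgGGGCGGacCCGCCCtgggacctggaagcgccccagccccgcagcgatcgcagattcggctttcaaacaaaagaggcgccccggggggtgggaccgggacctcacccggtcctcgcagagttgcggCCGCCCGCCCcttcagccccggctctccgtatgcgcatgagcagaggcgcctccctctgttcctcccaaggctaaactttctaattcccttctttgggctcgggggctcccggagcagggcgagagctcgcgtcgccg
ITGA6: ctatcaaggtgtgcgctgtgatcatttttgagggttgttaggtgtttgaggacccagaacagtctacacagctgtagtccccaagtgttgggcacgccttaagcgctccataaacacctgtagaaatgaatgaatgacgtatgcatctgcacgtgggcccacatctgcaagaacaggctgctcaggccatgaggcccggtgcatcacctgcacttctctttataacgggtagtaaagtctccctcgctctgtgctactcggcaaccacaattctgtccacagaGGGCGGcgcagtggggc
The core of the TCF and LEF motif, CTTTGA, which reads as TCAAAG on the other strand, is in none of these 4 windows, and it is in 12.9% of the 35116 promoter windows of all genes. Among the members it is in 6 of their 31 windows (ITGA1, ITGAE, ITGAM, LAMA2, LAMB2 and LAMB3). The GC box occurs 1 time in ITGA5, 2 times in ITGB8, 4 times in LAMB1 (with an overlap) and 1 time in ITGA6, and it is in 45% of all windows. GC content is 69.3% for ITGA5, 71.7% for ITGB8, 71% for LAMB1 and 53% for ITGA6, where the median window has 58.7%. A match or its absence describes these letters only.

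Whether the arms differed was tested as the change in 1 arm minus the change in another, at 24 and 48 h, the times all 3 share with 2 libraries each beyond 8 h. At 48 h, 8 members differed between CHIR99021 and Wnt3a (16.1% of all genes did), 10 between CHIR99021 and bcat (16.5%) and 10 between bcat and Wnt3a (12.1%). At 24 h the counts were 5 (9.95%), 3 (4.95%) and 7 (15%). By direction, with the share of all genes in parentheses, CHIR99021 minus Wnt3a at 48 h had 2 positive (6.75%) and 6 negative (9.35%). CHIR99021 minus bcat had 7 positive (5.97%) and 3 negative (10.6%), and bcat minus Wnt3a 1 positive (6.84%) and 9 negative (5.29%). At 24 h the split was 1 positive (4.39%) and 4 negative (5.56%) for CHIR99021 minus Wnt3a, 3 positive (1.65%) and 0 negative (3.3%) for CHIR99021 minus bcat, and 1 positive (9.06%) and 6 negative (5.95%) for bcat minus Wnt3a. For CHIR99021 and bcat at 24 h, the median difference of all genes was -0.14. ITGA6 fell more under CHIR99021 than under Wnt3a at 48 h, with a difference of -1.20 ± 0.16 (adjusted p = 1.97e-06). ITGA3 and ITGA2 also differed, by -3.48 ± 0.35 (adjusted p = 9.29e-09) and -2.44 ± 0.45 (adjusted p = 0.000191), and ITGB8 was further up under CHIR99021, by 1.99 ± 0.36 (adjusted p = 0.000157). ITGAV differed by -1.07 ± 0.22 (adjusted p = 0.000882). For ITGA5 the difference at 48 h was 0.01 ± 0.27 (adjusted p = 1), and for LAMB1 it was 0.03 ± 0.17 (adjusted p = 0.976), which misses the threshold and does not show that they moved alike.

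Against their own 0 h, ITGA5, ITGB5, ITGB8 and LAMB1 were further up under CHIR99021 than in the bcat arm. Each stood higher in both uninduced bcat libraries than in both CHIR99021 0 h libraries. The CHIR99021 48 h libraries of ITGA5, ITGB5 and ITGB8 were above those of bcat 48 h. For LAMB1 they were not, with 195 and 192 CPM under CHIR99021 and 198 and 162 CPM in bcat. At 48 h the change of ITGA5 was larger under CHIR99021 than under bcat by 2.24 ± 0.27 (adjusted p = 5.32e-07), that of ITGB8 by 3.21 ± 0.38 (adjusted p = 2.83e-07), that of ITGB5 by 1.02 ± 0.23 (adjusted p = 0.00223) and that of LAMB1 by 0.76 ± 0.17 (adjusted p = 0.00164). ITGA6 differed by -2.53 ± 0.17 (adjusted p = 3.95e-12). Set against Wnt3a at 48 h, the bcat change of ITGA5 was lower, with a difference of -2.23 ± 0.28 (adjusted p = 1.88e-06), as were those of LAMB1, with -0.73 ± 0.17 (adjusted p = 0.00464), and ITGAV, with -1.29 ± 0.23 (adjusted p = 0.000217). The 48 h level of LAMB1 was nonetheless higher in bcat, since Wnt3a 48 h had 109 and 116 CPM. Its 0 h level was higher in bcat too, at 93.5 and 98.5 CPM against 35.9 and 36.6 CPM at Wnt3a 0 h. The count of 5 for CHIR99021 and Wnt3a at 24 h was 1 without CHIR99021 0 h replicate 1 or Wnt3a 24 h replicate 2, 2 without CHIR99021 0 h replicate 2, and 3 without CHIR99021 24 h replicate 1, Wnt3a 0 h replicate 1 or Wnt3a 24 h replicate 1. The count of 8 at 48 h was 5 without CHIR99021 48 h replicate 1 or Wnt3a 48 h replicate 1. For CHIR99021 and bcat at 24 h the count of 3 was 1 without CHIR99021 0 h replicate 2.

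**Figure D5:**
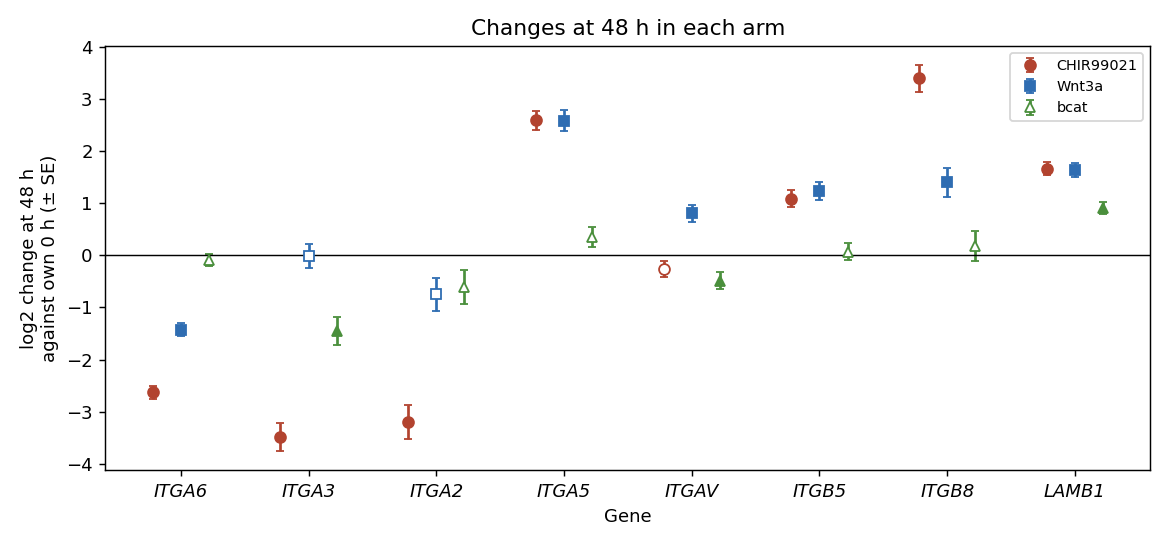
Log2 change at 48 h against the arm's own 0 h (± SE) for 8 members in the CHIR99021, Wnt3a and bcat arms, with filled symbols for called changes. The bcat points of ITGA6, ITGA5, ITGB5 and ITGB8 lie near 0 and are not called, while CHIR99021 and Wnt3a lie on the same side of 0 for each of these 4.

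The untreated cultures of the arms were not alike either. Between bcat 0 h and CHIR99021 0 h, 7 members were called (6 higher and 1 lower in bcat; 15.7% of all genes were called), and between Wnt3a 0 h and CHIR99021 0 h 3 were (10.9% of all genes). ITGA6 was lower in the bcat line, at 187 and 205 CPM, against 278 and 311 CPM in CHIR99021 0 h (-0.58 ± 0.12, adjusted p = 0.000537). LAMB1 was higher in the bcat line, at 93.5 and 98.5 CPM, against 60.1 and 62.2 CPM (0.65 ± 0.12, adjusted p = 0.000272), and lower at Wnt3a 0 h, at 35.9 and 36.6 CPM, against the same CHIR99021 libraries (-0.75 ± 0.13, adjusted p = 0.000149). LAMA1 was lower at Wnt3a 0 h, at 51.1 and 68.2 CPM, against 115 and 114 CPM (-0.90 ± 0.12, adjusted p = 7.41e-06). ITGAM was higher in the bcat line (3.38 ± 0.54, adjusted p = 3.89e-05). The count of 7 was 4 without bcat 0 h replicate 1 or CHIR99021 0 h replicate 2, and the count of 3 was 5 without Wnt3a 0 h replicate 2. The bcat line and the separate cultures of each arm cannot be told apart.

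The proteins that work with integrins and laminins were described from 6 lists, all of whose members were tested. Each is given at the same 4 comparisons, with the share of all tested genes called that way in parentheses. The median log2 changes of all genes there were 0.02, 0.07, 0.03 and 0.06 at CHIR99021 48 h, Wnt3a 96 h, bcat 48 h and bcat 72 h, and list medians follow that order. Of 21 basement membrane partners, 11 higher (15.7%) and 2 lower (18.1%) at CHIR99021 48 h, 12 higher (18.8%) and 2 lower (21%) at Wnt3a 96 h, 5 higher (11.1%) and 2 lower (10.1%) at bcat 48 h and 12 higher (13.6%) and 1 lower (13.6%) at bcat 72 h were called. Their medians were 0.51, 0.85, 0.07 and 0.68. COL4A1, a chain of the type IV collagen network, had 304 and 418 CPM at 120 h of Wnt3a, against 63.7 and 84.1 CPM at its 0 h (log2 change 2.26 ± 0.13, adjusted p = 7.46e-14). COL4A6 had 254 and 257 CPM at 96 h of Wnt3a, against 25.5 and 41.2 CPM at its 0 h (log2 change 2.84 ± 0.14, adjusted p = 8.93e-16). NID2, a nidogen that ties laminin to collagen IV, had 37.2 and 38.8 CPM at 48 h of CHIR99021, against 7.08 and 9.2 CPM at its 0 h (log2 change 2.23 ± 0.23, adjusted p = 3.5e-09). NTN4, a netrin that binds the laminin gamma chain, had 11.7 and 14.8 CPM at 96 h of Wnt3a, against 0.25 and 0.323 CPM at its 0 h (log2 change 5.66 ± 0.50, adjusted p = 2.19e-10). TINAGL1, a matrix protein that binds integrins and laminin, went the other way, with 0.103 and 0.109 CPM at 48 h of CHIR99021, against 4.93 and 6.43 CPM at its 0 h (log2 change -5.68 ± 0.47, adjusted p = 2.67e-11). TINAGL1 also had 0.371 and 0.633 CPM at 72 h of bcat, against 5.56 and 5.88 CPM at its 0 h (log2 change -3.54 ± 0.44, adjusted p = 2.45e-07). The same list had 0 higher (9.2%) and 6 lower (11.7%) at CHIR99021 8 h called.

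Of 20 other integrin ligands, 7 higher (15.7%) and 5 lower (18.1%) at CHIR99021 48 h, 9 higher (18.8%) and 5 lower (21%) at Wnt3a 96 h, 1 higher (11.1%) and 9 lower (10.1%) at bcat 48 h and 6 higher (13.6%) and 6 lower (13.6%) at bcat 72 h were called. Their medians were 0.62, 0.52, -0.96 and -0.04. TNC, the tenascin bound by alpha9, had 172 and 238 CPM at 120 h of Wnt3a, against 5.55 and 7.76 CPM at its 0 h (log2 change 5.11 ± 0.47, adjusted p = 4.07e-08). THBS2, a thrombospondin, had 1.32 and 1.79 CPM at 96 h of Wnt3a, against 28.1 and 32.9 CPM at its 0 h (log2 change -4.32 ± 0.22, adjusted p = 2.75e-15). SPP1, the osteopontin bound by alphaV and alpha4 integrins, had 0.55 and 0.816 CPM at 48 h of CHIR99021, against 22.2 and 23.3 CPM at its 0 h (log2 change -5.09 ± 0.28, adjusted p = 2.84e-15). SPP1 also had 0.0743 and 0.422 CPM at 72 h of bcat, against 24.3 and 25.6 CPM at its 0 h (log2 change -6.79 ± 0.38, adjusted p = 1.06e-14). THBS1 was high early, with 137 and 198 CPM at 8 h of CHIR99021, against 26.2 and 30.9 CPM at its 0 h (log2 change 2.56 ± 0.38, adjusted p = 4.66e-05). FREM1 of the basement membrane list had 17.7 and 19.6 CPM at 48 h of CHIR99021, against 2.69 and 4.78 CPM at its 0 h (log2 change 2.35 ± 0.56, adjusted p = 0.00216). FREM1 also had 18.8 and 23.3 CPM at 72 h of bcat, against 1.18 and 3.74 CPM at its 0 h (log2 change 2.87 ± 0.67, adjusted p = 0.00237).

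Of 13 genes of other laminin receptors and their partners, 5 higher (15.7%) and 3 lower (18.1%) at CHIR99021 48 h, 5 higher (18.8%) and 2 lower (21%) at Wnt3a 96 h, 4 higher (11.1%) and 1 lower (10.1%) at bcat 48 h and 5 higher (13.6%) and 1 lower (13.6%) at bcat 72 h were called, with medians of 0.18, 0.01, 0.22 and 0.39. BCAM, a receptor of the laminin alpha5 chain, had 12.7 and 15.9 CPM at 48 h of CHIR99021, against 38.6 and 39.6 CPM at its 0 h (log2 change -1.46 ± 0.25, adjusted p = 5.35e-05). DAG1, dystroglycan itself, had 59.9 and 65.2 CPM at 48 h of CHIR99021, against 127 and 129.7 CPM at its 0 h (log2 change -1.04 ± 0.12, adjusted p = 5.9e-08). SDC1, a syndecan, had 21 and 21.2 CPM at 120 h of Wnt3a, against 39.1 and 56.5 CPM at its 0 h (log2 change -1.23 ± 0.16, adjusted p = 4.87e-07). SDC1 also had 57 and 59.1 CPM at 8 h of bcat, against 20.8 and 25 CPM at its 0 h (log2 change 1.37 ± 0.17, adjusted p = 5.61e-07), so the 2 arms were on opposite sides of 0 at times that are not matched.

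Of 29 cytoplasmic partners of integrins, 5 higher (15.7%) and 5 lower (18.1%) at CHIR99021 48 h, 11 higher (18.8%) and 3 lower (21%) at Wnt3a 96 h, 4 higher (11.1%) and 3 lower (10.1%) at bcat 48 h and 5 higher (13.6%) and 4 lower (13.6%) at bcat 72 h were called, with medians of 0.17, 0.42, -0.09 and -0.01. NEDD9, a docking protein downstream of focal adhesion kinase, had 39.99 and 40.8 CPM at 48 h of CHIR99021, against 6.18 and 6.6 CPM at its 0 h (log2 change 2.66 ± 0.16, adjusted p = 1.57e-14). NEDD9 also had 17.1 and 21.5 CPM at 120 h of Wnt3a, against 4.2 and 4.73 CPM at its 0 h (log2 change 2.06 ± 0.18, adjusted p = 1.44e-10). Likewise it had 46.9 and 47 CPM at 72 h of bcat, against 4.7 and 4.71 CPM at its 0 h (log2 change 3.32 ± 0.19, adjusted p = 1.74e-14). TNS3, a tensin that links integrins to actin, had 95.4 and 112 CPM at 16 h of CHIR99021, against 18.7 and 24.2 CPM at its 0 h (log2 change 2.27 ± 0.20, adjusted p = 1.2e-09). TNS3 also had 84.8 and 132 CPM at 48 h of bcat, against 33.2 and 38.9 CPM at its 0 h (log2 change 1.56 ± 0.21, adjusted p = 1.24e-06). FERMT1, the epithelial kindlin that activates integrins, had 1.94 and 2.79 CPM at 96 h of Wnt3a, against 23.6 and 30.03 CPM at its 0 h (log2 change -3.54 ± 0.29, adjusted p = 8.63e-11). Of 6 tetraspanins that bind integrins, 2 higher (15.7%) and 2 lower (18.1%) at CHIR99021 48 h, 2 higher (18.8%) and 1 lower (21%) at Wnt3a 96 h, 0 higher (11.1%) and 1 lower (10.1%) at bcat 48 h and 1 higher (13.6%) and 2 lower (13.6%) at bcat 72 h were called, with medians of -0.17, -0.08, -0.24 and -0.17. CD9 had 50.1 and 52.9 CPM at 48 h of CHIR99021, against 118 and 122 CPM at its 0 h (log2 change -1.22 ± 0.12, adjusted p = 1.52e-09). CD9 also had 32.7 and 35.8 CPM at 120 h of Wnt3a, against 94.1 and 111 CPM at its 0 h (log2 change -1.60 ± 0.13, adjusted p = 4.13e-11). Likewise it had 48.2 and 50.1 CPM at 72 h of bcat, against 123 and 159 CPM at its 0 h (log2 change -1.53 ± 0.13, adjusted p = 6.62e-11), and CD151, the partner of the laminin-binding integrins, had 86 and 93.6 CPM at 48 h of CHIR99021, against 48.6 and 49 CPM at its 0 h (log2 change 0.88 ± 0.13, adjusted p = 2.23e-06). Of 9 genes of latent TGF-beta, the ligand released by alphaV beta8, 1 higher (15.7%) and 2 lower (18.1%) at CHIR99021 48 h, 6 higher (18.8%) and 1 lower (21%) at Wnt3a 96 h, 3 higher (11.1%) and 2 lower (10.1%) at bcat 48 h and 2 higher (13.6%) and 1 lower (13.6%) at bcat 72 h were called, with medians of 0.07, 1.13, 0.47 and 0.80. LTBP1, which anchors the latent complex in the matrix, had 73 and 81.1 CPM at 48 h of CHIR99021, against 34.3 and 36.1 CPM at its 0 h (log2 change 1.13 ± 0.13, adjusted p = 4.06e-08). NRROS, which tethers it to cells, had 5.75 and 7.11 CPM at 8 h of CHIR99021, against 1.36 and 2.13 CPM at its 0 h (log2 change 1.85 ± 0.31, adjusted p = 4.34e-05). NRROS also had 0.346 CPM at 72 h of Wnt3a, against 3.56 and 5.06 CPM at its 0 h (log2 change -3.70 ± 0.49, adjusted p = 1.41e-06). Each of the named list genes kept its call with every single library left out.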

How the data were processed

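Total RNA of H9 cultures was sequenced. Transcripts were quantified with kallisto 0.43.0, per the submitters' processing notes, and the authors deposited 1 table of estimated counts per gene; the genome build is not given in the sources used here. Low values of a library were mostly multiples of 1 constant (0.265 to 6.58; after division, 57.3% to 81.2% of the values of at most 20 differed from a whole number by under 0.1), so each column was divided by its constant and rounded. Of 38 libraries 37 were used, since 1 pair of columns was identical.

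One edgeR 4.0.16 quasi-likelihood fit (R 4.3.3, limma 3.58.1; TMM scaling, filterByExpr, trended dispersions, robust) held 19 groups and 18 residual degrees of freedom, with 24304 genes tested and Benjamini-Hochberg adjustment per comparison. Fits with 1 library left out kept the trended dispersions and tested genes of the full fit. Levels per kilobase use GENCODE release 29 (GRCh38). DESeq2 1.42.0 and other alternatives are in the closing section. Members called at least once with a size of 1 or more on the log2 scale and a group mean of 5 CPM or more were given by library, the others by their range. Of the 3 genes with the largest called change per list and arm, some that kept the call with every library left out are named, chosen after their values were seen, and 1 list gene is not reported here. Members and lists were chosen with earlier results of these data known. The labels call the libraries biological replicates without naming separate cultures, so p-values measure the spread between these libraries.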

Additional observations from a re-analysis of the deposited data

Results flagged for a closer look

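The listed differences are between the change of a gene in one arm and its change in another at the same time (edgeR quasi-likelihood test of the difference, adjusted over all genes), and each held its call with every single library left out. Of 43 member calls in the 6 tests of differences between arms, 24 are listed and 19 are not. Calls that were kept but changed much in size with a single library left out are not listed either. The 19 are therefore not all lost calls by this rule. Values are log2 differences, and all 3 tests at a time share libraries, so they are not independent of each other.

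At 24 h, CHIR99021 minus Wnt3a was -1.18 for ITGB5. At 48 h it was -2.44 for ITGA2, -3.48 for ITGA3, -1.20 for ITGA6, -1.07 for ITGAV and 1.99 for ITGB8. ITGA6, ITGA3 and ITGA2 were thus lower against their 0 h under CHIR99021 than under Wnt3a at 48 h. The other laminin-binding and collagen-binding alpha chains, ITGA7, ITGA1, ITGA10 and ITGA11, did not meet the rule for listing in this comparison.

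CHIR99021 minus bcat was 4.01 for ITGAM at 24 h, where the uninduced bcat line had the highest ITGAM of all groups. At 48 h it was -2.59 for ITGA2, -2.04 for ITGA3, 2.24 for ITGA5, -2.53 for ITGA6, 1.02 for ITGB5, 3.21 for ITGB8 and 0.76 for LAMB1.

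Between bcat and Wnt3a, the 24 h difference was -1.26 for ITGA5, 0.81 for ITGA6, -1.45 for ITGB5, -2.08 for ITGB8 and -0.69 for LAMB1. The 48 h difference was -2.23 for ITGA5, 1.33 for ITGA6, -1.29 for ITGAV, -1.16 for ITGB5 and -0.73 for LAMB1. ITGA5, ITGB5 and LAMB1 were lower and ITGA6 higher against their 0 h in bcat cells than under Wnt3a at both times. The level of LAMB1 itself was higher in bcat cells. It was 152 and 155 CPM at 24 h and 198 and 162 CPM at 48 h in bcat. Under Wnt3a it was 94.7 and 92.4 CPM at 24 h and 109 and 116 CPM at 48 h. At 0 h LAMB1 had 93.5 and 98.5 CPM in the bcat arm and 35.9 and 36.6 CPM in the Wnt3a arm.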

How the results depend on the processing

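No called change of a member turned its direction under any alternative. Of 196 called changes of members, 195 kept the call with DESeq2 size factors, 195 without ribosomal RNA and mitochondrial genes, 186 on the deposited values without division, 175 with no filter on low counts and 158 without the 4 libraries named in the report. With the DESeq2 Wald test, 187 of the 193 with an adjusted p kept it, and with 1 library left out 720 of 934 refits did. Counts of called members that moved by over 1.5 times were, without the 4 libraries, 1 at Wnt3a 8 h (against 2), 6 at Wnt3a 24 h (against 10), 3 for CHIR99021 minus Wnt3a at 24 h (against 5), 5 for bcat minus Wnt3a at 48 h (against 10) and 4 for bcat 0 h against CHIR99021 0 h (against 7). DESeq2 gave 5 at bcat 16 h (against 2) and 7 at bcat 24 h (against 4), and the deposited values gave 11 for bcat minus Wnt3a at 24 h (against 7). With 1 library left out the counts were 4 to 6 (against 10) at CHIR99021 24 h, 9 to 12 (against 14) at CHIR99021 72 h, 1 to 2 (against 2) at Wnt3a 8 h, 5 to 7 (against 10) at Wnt3a 24 h and 1 to 2 (against 2) at bcat 16 h. They were 1 to 5 (against 5) and 5 to 7 (against 8) for CHIR99021 minus Wnt3a at 24 and 48 h, 1 to 3 (against 3) for CHIR99021 minus bcat at 24 h, 4 to 6 (against 7) for bcat 0 h and 2 to 5 (against 3) for Wnt3a 0 h, each against CHIR99021 0 h. Fewer samples enter each of these refits, a lone library is assumed to vary like the other groups, and the cause was not tested otherwise. The replicate numbers did not pair the libraries (correlations of same-numbered deviations between -0.083 and 0.111). With the replicate number as a block, 188 of the 196 calls were kept. Genes of a few counts, such as ITGA8 and ITGB7, are limited by depth.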
